A study of Mus musculus with 21 samples.

Results

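The Tcf/Lef transcription factors Lef1, Tcf7, Tcf7l1 and Tcf7l2, the Groucho co-repressors Tle1 to Tle4, and the co-activators Ctnnb1 and Bcl9 were examined in keratinocytes after long-term p16 expression. These 10 genes were taken by their symbols from a table of 22050 entries, and all 10 were abundant enough to be among the 12782 genes tested. The table holds mRNA-seq of GFP+ epidermal keratinocytes sorted from dorsal skin, with 4 control and 4 p16 samples. Control mice carried K5-rtTA/tet-GFP, and p16 mice carried K5-rtTA/tet-GFP/tet-p16, on a mixed FVB, C57Bl and 129sv background. All mice of both groups carried the K5-driven activator and the inducible GFP gene, and all received doxycycline from 3 weeks of age for 6 months. The K5 promoter is active in basal cells of the interfollicular epidermis and of the hair follicle, so GFP+ cells of both compartments could enter a sample. Each sample was about 80000 cells pooled from 3 mice, sorted after cells positive for CD140a, CD45 or CD31 had been gated out. A further 13 samples of a second profiling, with GFP- cells, were not analysed here.

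Tcf/Lef proteins are the DNA-binding partners through which canonical Wnt signalling changes transcription. Without a Wnt signal they hold Groucho (Tle) proteins at target genes and keep them silent, and when β-catenin (Ctnnb1) accumulates it displaces Groucho and brings in Bcl9 and Pygopus co-activators. Family members differ in their habits: Tcf7 (the Tcf1 protein) and Lef1 often act as activators, whereas Tcf7l1 (Tcf3) acts mostly as a repressor and marks hair-follicle stem cells, and Tcf7l2 (Tcf4) can do either.

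In p16 cells the mean of Tcf7l1 fell by 60.7% and that of Tcf7l2 by 31.8%, and these were the 2 members that passed the adjusted threshold (limma adjusted p under 0.05 over all tested genes). Tcf7 had a mean 1.74-fold that of controls and missed the threshold narrowly. Lef1, Tle2, Tle3, Tle4 and Bcl9 had overlapping values and did not pass, and Ctnnb1 and Tle1 had lower means without passing. The ratio of Tcf7 to Tcf7l1 within a library averaged 4.60 times its control mean in the p16 libraries.

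The human p16 transgene was read 1 to 3 times in each control library, at 0.7, 1.3, 2.5 and 1.5 on the normalized scale from replicate 1 through 4. It stood at 1.6, 10.1, 16 and 7.4 in the p16 libraries in the same order. The library labelled p16 replicate 1 rests on 2 reads of the p16 transgene and for that gene lies within the control range. For the hair-follicle stem cell marker Cd34 it lay with the p16 libraries, at 8.8 against 8.0 to 16.4 in the others and 121.9 to 238.9 in controls. Results for Tcf7l1, Tcf7l2, Tcf7 and some other genes are also given without it. The GFP transgene was lower in p16 libraries without overlap, at 4152.0 to 5912.6 in control and 3161.8 to 3978.8 in p16 libraries. Control libraries held 1760953 to 3414362 reads on genes and p16 libraries 2884544 to 3202975. Labels of replicate 3 in both groups word the library protocol differently from the rest, and results are also given without those samples. Keratin 5 and keratin 14, which define basal keratinocytes, were at normalized values of 8427 or more in all 8 libraries. Markers of the gated-out cells were mostly low but not all absent. Among immune genes, Lyz2 was at 0 throughout and Ptprc reached 1.6. Cd74 was at 72.7 to 91.7 in control and 79.8 to 113.5 in p16 libraries, and H2-Aa and H2-Ab1 reached 47.6 and 36.8. Of the endothelial genes, Cdh5, Kdr and Emcn were at 0 throughout and Egfl7 and Pecam1 reached 11.7 and 6.4. Of the fibroblast genes, Lum was at 0 throughout and Col1a2 reached 17.8, while Dcn was at 2.6 to 10.7 in control and 36.2 to 203.0 in p16 libraries. The library of p16 replicate 4 stood apart from the rest of its group, with a chi-square per degree of freedom of 6.75 to 8.96 against the other p16 libraries, which differed from each other by 3.05 to 3.31 (control pairs 3.64 to 5.33). It had the lowest p16 value for Lef1, Tcf7l1, Tcf7l2, Tle1, Tle2, Ctnnb1 and Bcl9. Without it the log2 difference was -1.17 for Tcf7l1 and -0.49 for Tcf7l2, and both still passed in limma (adjusted p = 0.00119 and 0.0320).

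Shown here are 4 stretches of DNA just upstream of annotated starts of the factors, because the family binds a short core and some of its genes are themselves Wnt targets. No exon of GENCODE M21 overlaps them. The Tcf7 stretch can nevertheless be read through without a stop codon, so it may be coding sequence of a longer Tcf7 transcript rather than promoter DNA. The core was searched as CTTTGAT, also in the form CTTTGTT, further in the form CTTTGAA, and lastly in the form CTTTGTA. All 10 members had RefSeq promoter windows of 300 bases on GRCm38.p6, 17 windows in all, and both strands were searched. The letters were present in 2 of the 17 windows, an internal start of Tcf7l2 and an internal start of Lef1, against 16.9% of 32851 windows genome-wide. Matches are in capitals, and the one at Lef1 is read on the opposite strand. The first base of each stretch lies 100 bases before the start except for Lef1, where it lies 170 bases before.
Tcf7, chr11:52283015-52283114, minus strand: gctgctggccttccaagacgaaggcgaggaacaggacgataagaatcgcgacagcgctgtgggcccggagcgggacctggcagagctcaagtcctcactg
Tcf7l2, first start, chr19:55741710-55741809, plus strand: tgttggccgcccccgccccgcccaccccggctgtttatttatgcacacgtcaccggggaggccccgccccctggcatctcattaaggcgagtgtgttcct
Tcf7l2, internal start, chr19:55895221-55895320, plus strand: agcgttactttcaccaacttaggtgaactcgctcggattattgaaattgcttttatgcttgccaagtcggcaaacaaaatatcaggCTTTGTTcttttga
Lef1, internal start, chr3:131156124-131156223, plus strand: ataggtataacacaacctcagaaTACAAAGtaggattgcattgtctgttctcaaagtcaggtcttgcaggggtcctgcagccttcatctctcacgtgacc
The stretches at the Tcf7 start and the first Tcf7l2 start have a GC content of 63% and 66%, and the internal Tcf7l2 and Lef1 stretches one of 39% and 46%. The 3′ reads counted here do not tell which start a transcript used, and no factor binding was measured.

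Tcf7l1 (ENSMUSG00000055799, chromosome 6 of GRCm38 from 72626378 to 72789254, minus strand) encodes Tcf3, the member most often described as a repressor of Wnt targets. Its normalized read counts were 118.7, 86.0, 147.0 and 103.9 in control replicates 1 to 4. In p16 replicates 1 to 4 they were 54.4, 51.5, 42.6 and 30.4. Every p16 library lay below every control library, and the lowest was p16 replicate 4, the library that stood apart. The means were 114 ± 25.8 and 44.7 ± 10.8 (SD, n = 4 each), a log2 fold change of -1.34 on the log2(value + 1) scale (standard error 0.20, 95% interval -1.77 to -0.90, limma adjusted p = 0.00180). Permuting the log2 values exactly, two-sided, gave p = 0.0286, the smallest that 4 samples against 4 allow.
The fall passed the threshold in all 16 alternative fits, with log2 fold changes from -1.46 to -1.17 and adjusted p up to 0.0299 in limma, when replicate 3 of both groups was left out. The limma adjusted p was 0.00330 when the library labelled p16 replicate 1 was dropped. Exons of Tcf7l1 overlap those of Gm15401 on the opposite strand, as do those of Lef1, Tle1, Tle2 and Ctnnb1 with Gm43352, Gm11250, Gm15917 and Ulk4, and whether the counting used strand is not given in the sources used here.

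Tcf7l2 (ENSMUSG00000024985, chromosome 19, 55741820 to 55933654, plus strand) encodes Tcf4, the main β-catenin partner of the intestinal epithelium. Its values were 279.7, 228.4, 213.8 and 220.0 in control replicates 1 to 4. They were 150.3, 181.9, 169.4 and 140.6 in p16 replicates 1 to 4. The groups did not overlap, and control replicate 1 was the highest library. Means went from 236 ± 30.1 to 161 ± 18.6 (SD, n = 4 each), a log2 fold change of -0.55 (standard error 0.12, 95% interval -0.81 to -0.29, limma adjusted p = 0.0204, exact permutation p = 0.0286). This call was less stable than that of Tcf7l1. In limma it was lost on leaving out control replicate 1 (adjusted p = 0.0743), the library labelled p16 replicate 1 (0.0750) or replicate 3 of both groups (0.0628), with log2 fold changes of -0.46, -0.52 and -0.62.

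Tcf7 (ENSMUSG00000000782, chromosome 11, 52252371 to 52283014, minus strand) encodes Tcf1, an activator of Wnt targets that is also prominent in T cells. Normalized read counts were 50.4, 29.5, 49.3 and 64.2 in control replicates 1 to 4. The p16 replicates 1 to 4 had 69.6, 82.8, 107.3 and 76.5. All p16 libraries lay above all control libraries, but the gap between control replicate 4 and the library labelled p16 replicate 1 was small. The means were 48.4 ± 14.3 and 84.1 ± 16.4 (SD, n = 4 each), a log2 difference of 0.82 (standard error 0.22, 95% interval 0.35 to 1.28, exact permutation p = 0.0286).
The limma adjusted p of Tcf7 was 0.0513 and did not pass, whereas the unadjusted p was 0.00201. It passed in 6 of 16 alternative fits, among them edgeR's quasi-likelihood test on recovered reads (adjusted p = 0.0457), DESeq2 (adjusted p = 0.0178) and limma with the replicate number as a block (adjusted p = 0.0328). Leaving out single libraries brought it past the threshold in limma only without control replicate 4 (adjusted p = 0.0315) or p16 replicate 4 (0.0487). It was furthest from passing without replicate 3 of both groups (limma adjusted p = 0.234), where the log2 difference was 0.72. The study itself singled out Tcf7, Tcf7l1 and Tcf7l2 on these same samples, so their differences here are not independent evidence. It used DESeq2 with a cutoff of P under 0.05, unlike the limma threshold applied here. Beyond these samples, it also reported more Tcf1-positive cells by staining. In cultured keratinocytes made to express p16 it reported Tcf7 higher and Tcf7l1 and Tcf7l2 lower by qRT-PCR.

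Lef1 (ENSMUSG00000027985, chromosome 3, 131110471 to 131224356, plus strand), the activator best known from hair matrix cells, was close to the limit of this sequencing depth, at 2 to 24 reads in control libraries and 3 to 15 in p16 libraries. Its values were 17.8, 6.4, 1.7 and 9.2 in control replicates 1 to 4. In p16 replicates 1 to 4 they were 9.6, 7.8, 13.3 and 2.5. The groups overlapped fully, with means of 8.78 ± 6.77 and 8.30 ± 4.49 (SD, n = 4 each). The log2 difference was 0.07 with a 95% interval from -1.11 to 1.25 (limma adjusted p = 0.974). A rise or a fall of a size inside that interval remains compatible with these values. Its sign also turned to a log2 difference of -0.15 in edgeR, -0.10 in DESeq2 and -0.71 without replicate 3 of both groups.

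**Figure D1:**
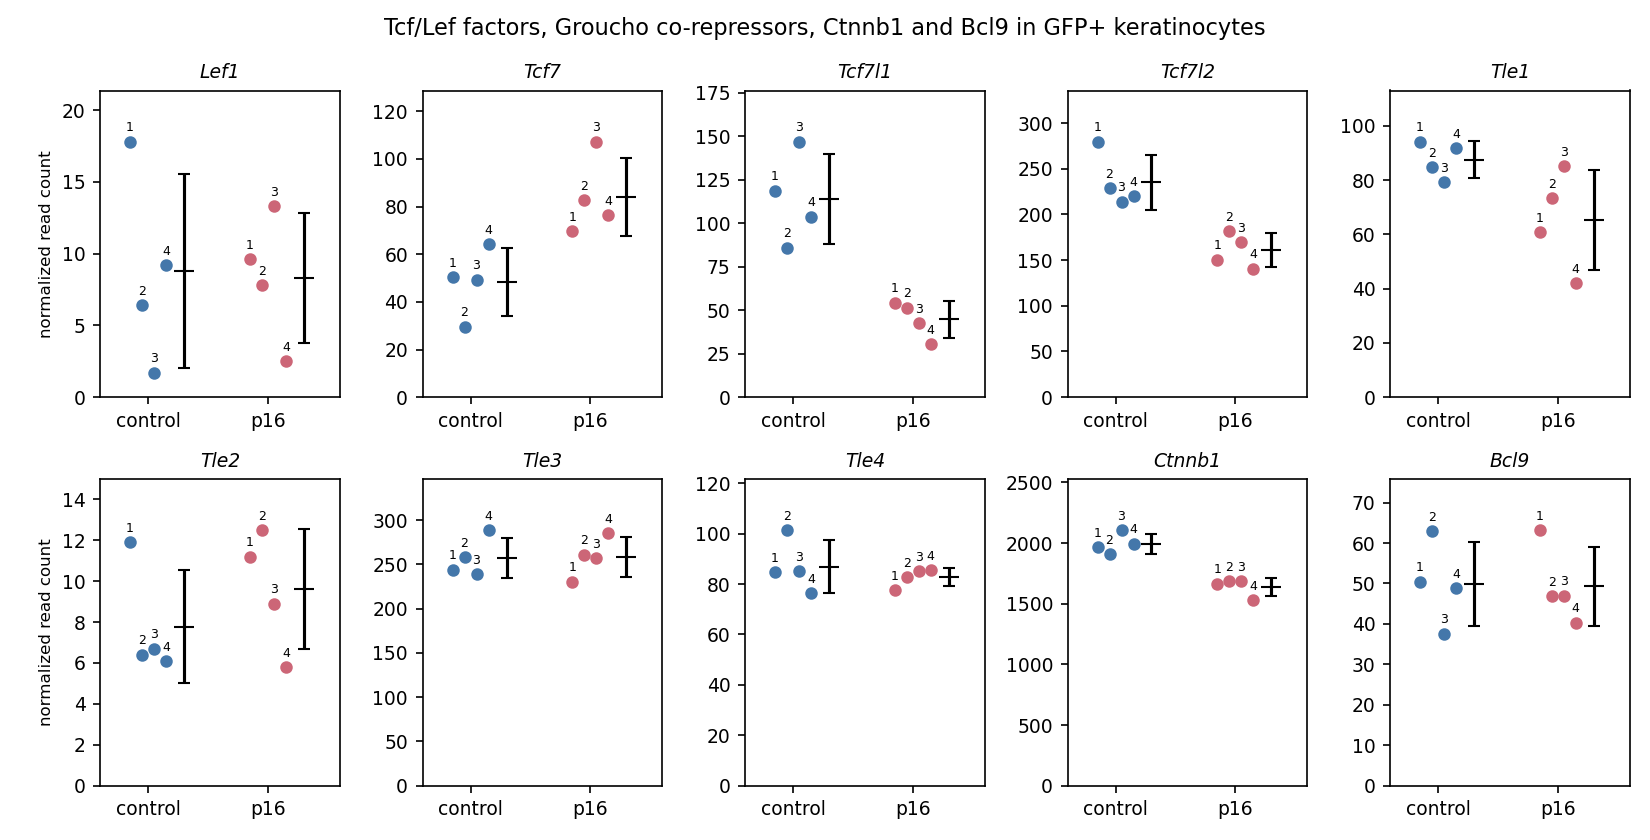
Normalized read counts (vertical axes, each starting at 0) of the 10 genes in 4 control (blue) and 4 p16 (red) libraries. Numbers are replicate numbers and the black marks show mean ± SD (n = 4). Tcf7l1, Tcf7l2, Ctnnb1 and Tcf7 show no overlap between the groups, with Tcf7 higher and the other genes lower in p16 libraries.

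Of the Groucho co-repressors, 0 of 4 passed the adjusted threshold in limma, edgeR or DESeq2 and 1 of 4 had an unadjusted p under 0.05 in limma. Over all tested genes 3.86% passed in limma in either direction and 15.9% did so before adjustment. Counts over 4 genes near these shares are not a result about the group. The Groucho genes encode closely related scaffold proteins that bind Tcf/Lef factors and recruit histone deacetylases. Tle3 (chromosome 9, 61372366 to 61418497) had values of 244.1, 258.0, 238.9 and 288.8 in control replicates 1 to 4. The p16 replicates 1 to 4 had 230.3, 260.8, 257.1 and 285.3. Its means were 257 ± 22.4 and 258 ± 22.5 (SD, n = 4 each), a log2 difference of 0.00 on the log2(value + 1) scale with a 95% interval of -0.22 to 0.23 (limma adjusted p = 0.990).
Tle4 (chromosome 19, 14448150 to 14598051) had values from 76.4 to 101.4 in control libraries and from 77.6 to 85.5 in p16 libraries. Its log2 difference was -0.06 with a 95% interval of -0.34 to 0.22 (limma adjusted p = 0.883). For Tle3 and Tle4 the intervals thus leave room only for differences well under those fitted for Tcf7l1.

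Tle1 (chromosome 4, 72117142 to 72200919) had values of 94.2, 84.7, 79.3 and 91.7 in control replicates 1 to 4. It had 60.8, 73.4, 85.1 and 41.9 in p16 replicates 1 to 4. The groups overlapped through p16 replicate 3, and p16 replicate 4 was the lowest library. Means were 87.5 ± 6.77 and 65.3 ± 18.5 (SD, n = 4 each), a log2 difference of -0.46 that did not pass (95% interval -0.87 to -0.05, limma unadjusted p = 0.0298, adjusted p = 0.244), and without p16 replicate 4 it was -0.27 (limma adjusted p = 0.445). Tle2 (chromosome 10, 81574561 to 81590845) was sparse, at 4 to 16 reads in control libraries and 7 to 16 in p16 libraries. Its normalized values ranged from 6.1 to 11.9 in control and from 5.8 to 12.5 in p16 libraries, and the 95% interval of its log2 difference ran from -0.44 to 0.98 (limma adjusted p = 0.770).
Outside the 4 Groucho members, the shorter family protein Aes, which lacks the repeats of the full-length proteins, had 952.2 to 1048.9 in control and 900.2 to 1433.9 in p16 libraries (limma adjusted p = 0.554). Tle6, a divergent relative, had 6.4 to 17.8 in control and 12.8 to 28.0 in p16 libraries and did not pass either (log2 difference 0.89, limma adjusted p = 0.173).

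Ctnnb1 (ENSMUSG00000006932, chromosome 9, 120929216 to 120960507), which encodes β-catenin, the co-activator that also links cadherins to actin, had normalized read counts of 1964.4, 1908.3, 2107.2 and 1993.8 in control replicates 1 to 4. In p16 replicates 1 to 4 it had 1663.9, 1684.1, 1687.3 and 1531.0. The spread within groups was small and the groups did not overlap. Means were 1993 ± 83.7 and 1642 ± 74.4 (SD, n = 4 each), a difference of -17.6% and of -0.28 in log2 (standard error 0.08, 95% interval -0.46 to -0.10, exact permutation p = 0.0286). It did not pass in limma (adjusted p = 0.0883) or edgeR (adjusted p = 0.0780) and did in DESeq2 (adjusted p = 0.0115). The cadherin partners measured beside it, Cdh1, Cdh3, Ctnna1, Ctnnd1, Jup and Ctnnal1, had log2 differences between -0.08 and 0.16, and 0 of 6 passed in limma, also at an unadjusted p under 0.05. Over all tested genes 3.86% passed in limma in either direction and 15.9% did so before adjustment. Bcl9 (chromosome 3, 97203662 to 97297917), the adaptor between β-catenin and Pygopus, had 37.6 to 62.9 in control and 40.3 to 63.2 in p16 libraries. Its log2 difference was -0.01 (95% interval -0.43 to 0.40, limma adjusted p = 0.986).

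Across the 10 members, 2 were called lower and 0 higher in limma, where 2.61% of all tested genes were called lower and 1.24% higher. Before adjustment, 4 members were lower and 1 higher at p under 0.05, against 8.93% and 7.02% of all genes. The groups did not overlap at 3 members that were lower and 1 that was higher in p16 cells, against 5.63% and 4.19% of all genes, or 9.83% in either direction. In edgeR and DESeq2, 1 member was called higher and 2 and 3 lower, with 1.5% and 1.48% of all genes called higher and 2.79% lower in each. The median log2 difference was -0.04 over the 10 members and -0.00 over all tested genes, so the members did not move as a block. The members were chosen with results of these samples in view, so these shares are descriptions.

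**Figure D2:**
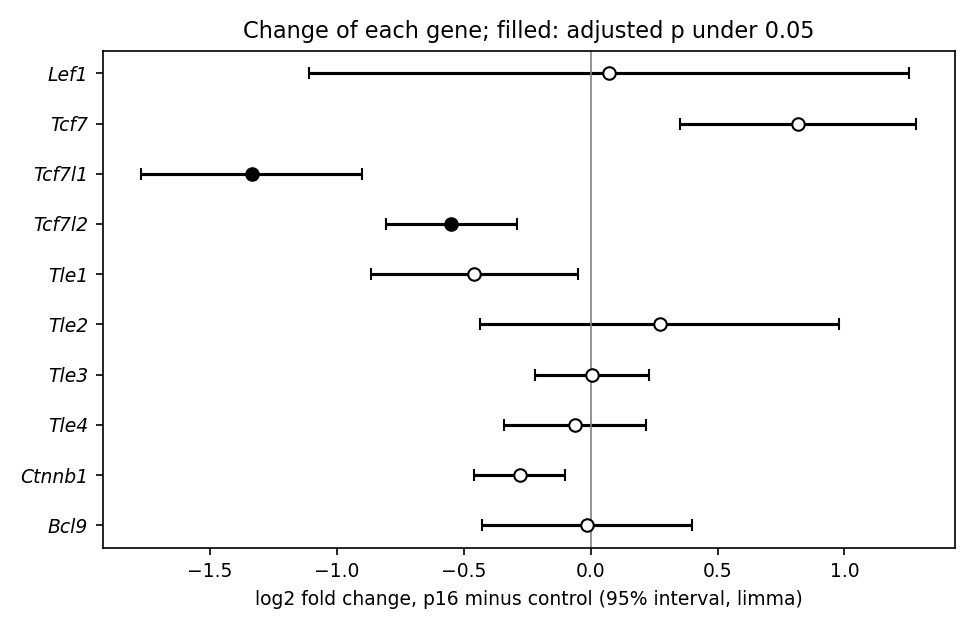
Log2 fold change of each gene between p16 and control libraries (horizontal axis) with its 95% interval from limma. Filled points passed an adjusted p of 0.05. Tcf7l1 and Tcf7l2 lie below 0 with intervals of -1.77 to -0.90 and -0.81 to -0.29, while the interval of Lef1 runs from -1.11 to 1.25.

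Activator to repressor ratios were taken within each library, where the size factor cancels out. Tcf7l2, which can act either way, was set beside Tcf7l1 on the repressor side, since the study describes both as often repressing Wnt targets. Reads came from transcript 3′ ends and were not divided by length, and capture can differ between genes, so a ratio of 1 does not mean equal numbers of transcripts. Only its difference between libraries is described, without a test. The ratio of Tcf7 to Tcf7l1 was 0.425, 0.343, 0.335 and 0.618 in control replicates 1 to 4. It was 1.28, 1.61, 2.52 and 2.52 in p16 replicates 1 to 4. Every p16 library was thus above every control library, and the mean went from 0.430 ± 0.132 to 1.98 ± 0.634 (SD, n = 4 each).
For Tcf7 to Tcf7l2 the ratios were 0.180, 0.129, 0.231 and 0.292 in control replicates 1 to 4. They were 0.463, 0.455, 0.633 and 0.544 in p16 replicates 1 to 4. The groups again did not overlap, and the mean ratio was 2.52 times that of control. For both ratios this follows from the non-overlap of Tcf7, Tcf7l1 and Tcf7l2 themselves, so it is no further observation. With Lef1 added to Tcf7 and with Tcf7l1 plus Tcf7l2 in the denominator, the ratio was 0.171, 0.114, 0.141 and 0.227 in control replicates 1 to 4. It was 0.387, 0.388, 0.569 and 0.462 in p16 replicates 1 to 4, with a mean 2.76 times that of control.

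Set against the summed Groucho genes Tle1 to Tle4, Lef1 plus Tcf7 had ratios of 0.157, 0.0797, 0.124 and 0.159 in control replicates 1 to 4. The p16 replicates 1 to 4 had 0.209, 0.211, 0.277 and 0.189. The groups did not overlap here either, but the gap was narrower, with a p16 mean 1.70 times the control mean. For β-catenin to the same Groucho sum the means were 4.55 ± 0.410 in control and 3.96 ± 0.304 in p16 libraries (SD, n = 4 each), and the groups overlapped. Tcf7l1 to Tcf7l2, a ratio between the factors of the denominators above, ran from 0.377 to 0.688 in control and from 0.216 to 0.362 in p16 libraries, without overlap.

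**Figure D3:**
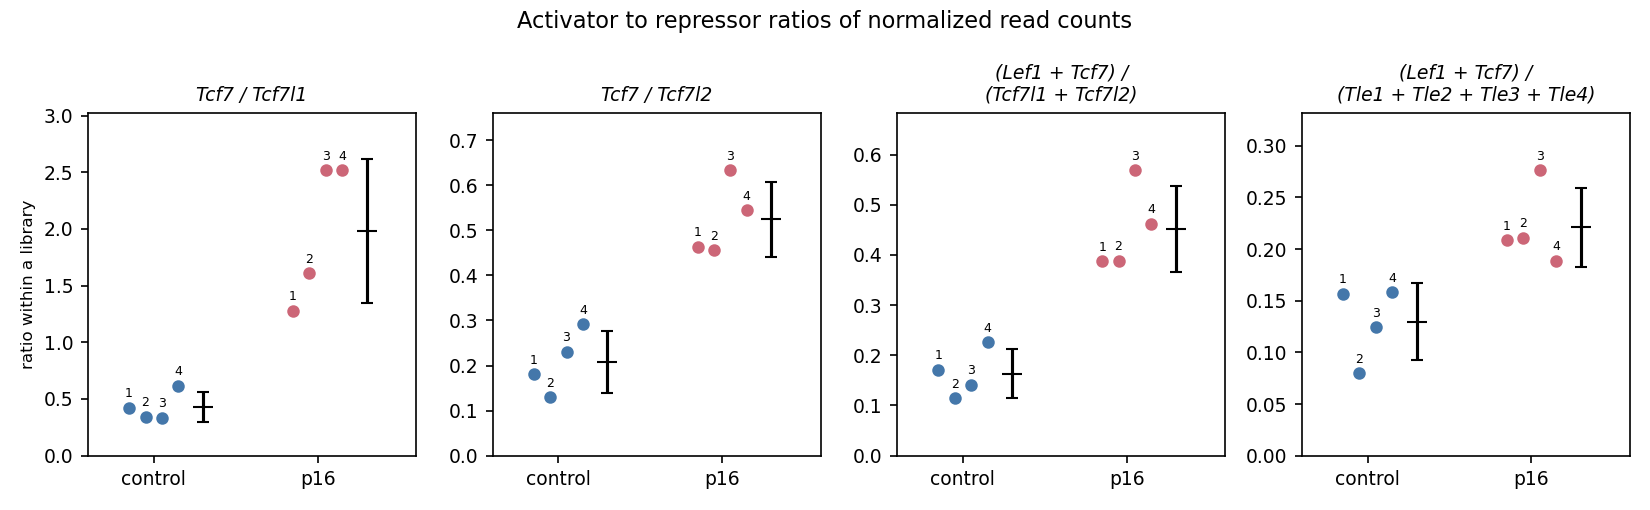
Ratios of normalized read counts within each library (vertical axes, no unit, starting at 0) for 4 control (blue) and 4 p16 (red) libraries. Numbers are replicate numbers and the black marks show mean ± SD (n = 4). The p16 libraries lie above all control libraries in each panel, from 1.28 to 2.52 against 0.335 to 0.618 for Tcf7 to Tcf7l1. For Tcf7 to Tcf7l1 and Tcf7 to Tcf7l2 this follows from the non-overlap of the single genes.

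The make-up of the Tcf/Lef reads shifted with these values. Tcf7 took 11.8 ± 3.24% of the reads of the 4 factors in control libraries and 28.2 ± 3.78% in p16 libraries (SD, n = 4 each). Tcf7l1 took 28.0 ± 5.20% and 15.0 ± 3.21%, and the shares of both genes did not overlap between the groups. Tcf7l2 held the largest number of these reads in each library, at 51.9 to 65.2% in control and 50.9 to 56.2% in p16 libraries. The summed normalized value of the 4 genes was 350 to 467 in control and 250 to 333 in p16 libraries.

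Among 24 other co-factors of the β-catenin complex, 1 was called lower and 0 higher in limma, and before adjustment 4 were lower and 0 higher at p under 0.05. Over all tested genes 2.61% were called lower and 8.93% were lower before adjustment, so 1 called gene of 24 is not a result about this list. The called gene was Ctnnbip1, which encodes ICAT, a small inhibitor that keeps β-catenin from binding Tcf. It fell from a mean of 223 to 164 (log2 fold change -0.44, limma adjusted p = 0.0466), and it passed in 7 of 16 alternative fits, with an adjusted p of up to 0.272 in limma without replicate 3 of both groups. With single libraries left out it passed in limma only without control replicate 2 (adjusted p = 0.0339) or p16 replicate 4 (0.0158). The Pygopus genes Pygo1 and Pygo2 and the acetyltransferase genes Crebbp and Ep300 did not pass, with log2 differences of 0.26, 0.09, -0.32 and -0.11. Of 20 tested genes of the β-catenin destruction complex and its regulators, Axin2, itself a Wnt target, was the 1 gene called, and it was higher (log2 fold change 0.74, limma adjusted p = 0.00379). The median log2 difference of these lists was -0.03 and 0.03.

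Of 20 known targets of Tcf and β-catenin, 5 were called higher and 1 lower with a median log2 difference of 0.32, and 7 were higher without overlap between the groups. Over all tested genes, 1.24% were called higher, 2.61% called lower and 4.19% higher without overlap. The cyclin genes Ccnd1 and Ccnd2, which drive entry into the cell cycle, rose from 728 to 1327 and from 4114 to 6424 (limma adjusted p = 0.000452 and 0.00284). Tnfrsf19, a receptor of the TNF family, rose from 240 to 572 (log2 fold change 1.26, limma adjusted p = 2.48e-05), and Znrf3, a ubiquitin ligase that removes Fzd receptors, rose from 73.4 to 113 (limma adjusted p = 0.0215). In limma the call of Znrf3 was lost on dropping the library labelled p16 replicate 1 (adjusted p = 0.0908), control replicate 3 (0.0661), p16 replicate 3 (0.0664) or replicate 3 of both groups (0.163). Axin2, counted above, was the fifth, and it missed the threshold without replicate 3 of both groups (limma adjusted p = 0.0529). Dkk3, a secreted protein of the Dickkopf family, fell from 120.5 to 57.9 (log2 fold change -1.04, limma adjusted p = 0.00199).
The hair-follicle target Lgr5 had 44.9 to 93.2 in control and 24.7 to 63.0 in p16 libraries and did not pass. Other targets were barely read, with Notum and Sp5 at normalized values of 4.6 or less in all 8 libraries. The study also displayed Wnt-associated genes from these samples, so these counts are not independent of it.

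**Figure D4:**
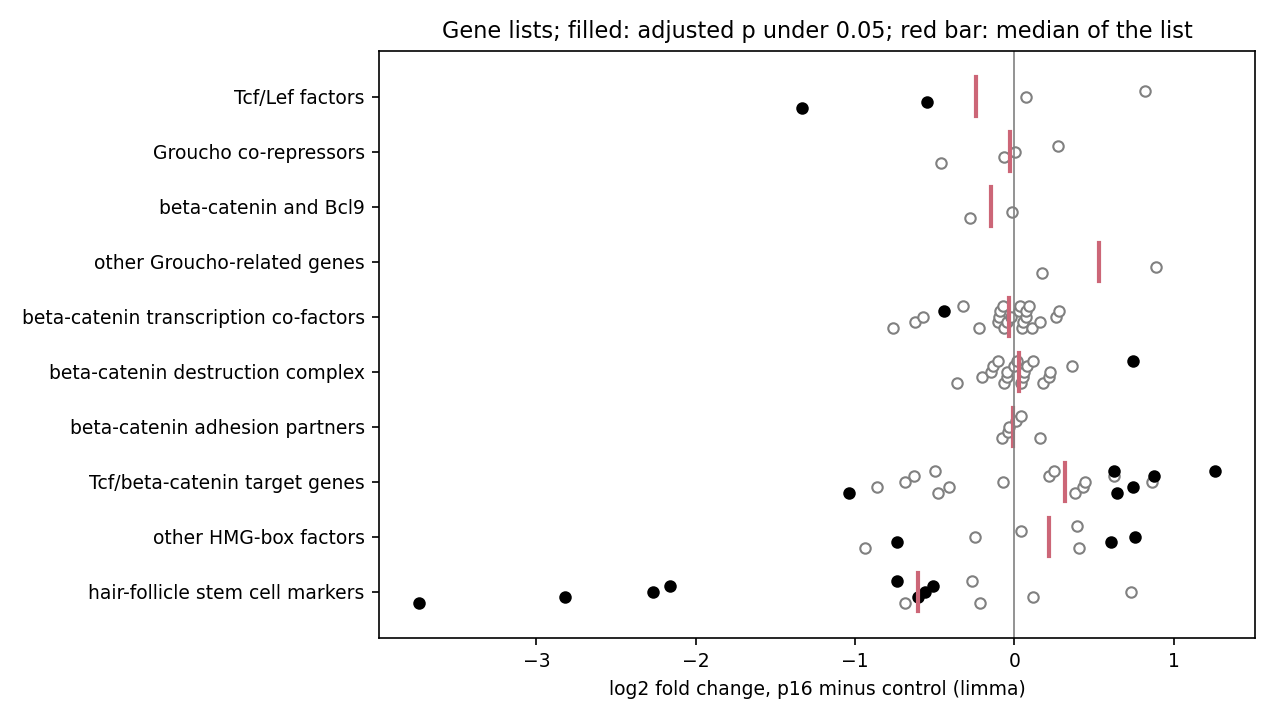
Log2 fold change between p16 and control libraries (horizontal axis) of each tested gene in 10 gene lists, with each gene a point and a red bar at the median of its list. Filled points passed an adjusted p of 0.05 in limma. Called target genes lie mostly to the right, with 5 higher and 1 lower, and called hair-follicle stem cell markers lie to the left, with 8 lower and 0 higher.

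Other factors with an HMG box, the DNA-binding fold that Tcf/Lef proteins share with the Sox family, moved in both directions, with a median log2 difference of 0.22. Of 8 tested genes, Sox21 (374 to 566, limma adjusted p = 0.00438) and Sox15 (163 to 267, limma adjusted p = 0.0432) rose, and Sox9, a hair-follicle stem cell regulator, fell from 1806 to 1116 (limma adjusted p = 0.0297). Sox21 passed in all 16 alternative fits, Sox15 in 7 and Sox9 in 10. With single libraries left out in limma, Sox15 passed only without control replicate 2 or 3 (adjusted p up to 0.142 otherwise), and Sox9 was lost without control replicate 1, 3 or 4 or the library labelled p16 replicate 1 (adjusted p up to 0.0912).

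Markers of other cells moved with some of these values. For the counts that follow, 2.61% of all tested genes were called lower and 1.24% higher in limma. Before adjustment, 8.93% were lower and 7.02% higher at p under 0.05. Of 13 hair-follicle stem cell markers, 8 (Cd34, Lhx2, Tbx1, Fgf18, Sox9, Nfatc1, Krt15 and Foxc1) were called lower and 0 higher, with a median log2 difference of -0.61, and before adjustment 10 were lower and 1 higher at p under 0.05. Their summed normalized value was 18276.5 to 23091.2 in control and 15359.9 to 16412.1 in p16 libraries. Krt15 was the largest part, at 8442.8, 13136.4, 8594.2 and 12321.7 in control replicates 1 to 4, highest in the 2 with the fewest reads. Reads of the similarly abundant Krt5 barely varied (11761 to 12194 in control, 12138 to 12279 in p16 libraries), although control depth did. Whether counts of abundant keratins reached a ceiling was not tested, so the Krt15 call and this sum may depend on depth. The log2 fold changes of the called markers were spread on both sides of that of Tcf7l1, at -3.74 for Cd34, -2.82 for Tbx1, -2.27 for Fgf18 and -2.16 for Lhx2, and at -0.74 for Sox9, -0.61 for Foxc1, -0.56 for Krt15 and -0.51 for Nfatc1. Fgf18 was sparse, at 2 to 18 reads in control and 0 to 3 in p16 libraries. Postn (0.73) and Col17a1 (0.12) had positive log2 differences that did not pass (limma adjusted p = 0.272 and 0.732). The part of these cells in the lower Tcf7l1 and Tcf7l2 counts was not tested, and in such bulk samples fewer cells of a type and less RNA per cell cannot be told apart. The 7 basal interfollicular markers gave 0 called genes in limma, with 2 higher at an unadjusted p under 0.05.
For Lef1, 2 of 6 tested hair matrix markers were called lower, namely Hoxc13 and Krt35. Krt35 was sparse, at 1 to 8 reads in control and 0 in all p16 libraries. Msx2 was higher without overlap, at 10.9 to 26.7 in control and 27.1 to 40.8 in p16 libraries, and did not pass (limma unadjusted p = 0.0409, adjusted p = 0.282). The list summed to 118.1 to 288.7 in control and 86.2 to 111.6 in p16 libraries. For Tcf7, the 7 T cell markers found in the table, of 10 listed, summed to 16.6 to 21.9 in control and 11.6 to 18.8 in p16 libraries, and 0 of 5 tested were called in limma (before adjustment, 1 was higher and 1 lower at p under 0.05). These genes differed among themselves. Cd3d was at 7.6 to 15.0 in control and 1.8 to 7.4 in p16 libraries, and Cd5 was at 0 to 0.7 in control and 1.6 to 7.1 in p16 libraries, the direction of Tcf7. Lck reached 9.2, Cd3g 6.2, Cd3e 3.9, Ptprc 1.6 and Cd2 0.9. Of 7 tested melanocyte markers, 2 (Dct and Tyrp1) were called lower and 0 higher, and before adjustment 6 were lower and 0 higher at p under 0.05. Their median log2 difference was -1.82. The melanocyte list summed to 138.5 to 549.0 in control and 51.7 to 148.4 in p16 libraries. Of 6 differentiated interfollicular markers, Lor rose and Sbsn and Ivl fell. Fibroblast markers summed to 11.6 to 27.5 in control and 42.8 to 220.7 in p16 libraries, mostly through Dcn, the 1 gene called higher of 5 tested. Before adjustment, 2 were higher and 1 lower at p under 0.05. The lower gene was Col1a2, at 4.2 to 17.8 in control and 1.6 to 3.3 in p16 libraries (limma adjusted p = 0.0571), so the list did not move together. The 6 endothelial markers summed to 9.0 to 19.2 and 8.6 to 14.4, with 0 of 3 tested called in limma and 1 lower at an unadjusted p under 0.05. Langerhans and myeloid markers (0 of 5 tested called, 1 higher at an unadjusted p under 0.05) summed to 131.5 to 157.9 and 140.6 to 188.7, and Lyz2 was at 0 in all 8 libraries. The part of these cell types in the members' values was not tested.

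For the called members, the tested genes with the most similar profile over the 8 libraries were ranked by the root mean square difference of centred log2 values. For Tcf7l1 they were Atp6v1c2 (0.221), Calml3 (0.227), Slc40a1 (0.229), Ggact (0.237) and Nrg4 (0.238). For Tcf7l2 they were Tyw5 (0.0787), Acsbg1 (0.0892), Bnip3l (0.0917), Prkca (0.0920) and Nasp (0.102). Of these 10 genes, Nrg4, Tyw5 and Prkca did not pass the adjusted threshold in limma, and the group difference that all of them share sets much of the likeness.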

How the data were processed

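Libraries were prepared with CEL-Seq, a 3′ end protocol, and reads were aligned to GRCm38; the submitters' processing notes name TopHat2, HTSeq and DESeq2. The deposited values are signal made by the authors, gene counts divided by size factors, and whole reads were recovered for 100% of values (tolerance 0.051). How strand and molecular identifiers were treated in counting is not given in the sources used here. The authors' own comparison columns (log2 ratio, statistic and p-values) and group means were not used.

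Values were fitted as log2(value + 1) in limma 3.58.1 (R 4.3.3) with a mean-variance trend, over 12782 of 22050 entries with a mean of at least 1, and p-values were adjusted by Benjamini-Hochberg. Fold changes of low genes are understated on this scale. edgeR 4.0.16 and DESeq2 1.42.0 were run on recovered reads, other pseudocounts, filters and scaling were tried, and each library was left out in turn. Each sample pooled 3 mice, and which of the study's experiments a sample came from is not given in the sources used here, so p-values measure the spread between these samples.

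The members and gene lists were chosen with earlier results of these data known. Named genes were all members, every called gene of the pathway lists, called or absent cell type markers, and the 5 nearest profiles of each called member. Aes, Tle6, Pygo1, Pygo2, Crebbp, Ep300, the cadherin partners, Lgr5, Notum, Sp5, Krt5, Krt14, Egfl7, Pecam1, Col1a2, Cd74, H2-Aa, H2-Ab1, Postn, Col17a1, Msx2 and the T cell genes were added after their values were seen. Symbols with several entries were left out. Promoter windows are from RefSeq (GRCm38.p6) and gene coordinates from GENCODE M21.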

Additional observations from a re-analysis of the deposited data

Results flagged for a closer look

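Within 52 groups of 4 values screened, 3 held a library far from the other replicates of its group, where chance alone gives about 1 in 20. Tle2 had a normalized value of 11.9 in control replicate 1, with the other controls between 6.1 and 6.7. Ctnnb1 had 1531 in p16 replicate 4, with the other p16 libraries between 1664 and 1687. Sox21 had 455.3 in control replicate 4, with the other controls between 337.4 and 355.5.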

How the results depend on the processing

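The number of members called higher was 0 in limma and became 1 with the replicate number as a block, with total count scaling, in edgeR, in DESeq2 and at an unadjusted p, and ran from 0 to 1 when single libraries were left out. Members called lower went from 2 to 1 without replicate 3 of both groups and to 4 at an unadjusted p, with a range of 1 to 2 when single libraries were left out. Over all genes, 159 were called higher and 334 lower. These became 63 and 150 without replicate 3 of both groups and 897 and 1141 at an unadjusted p, and ranged from 69 to 196 and from 176 to 343 when single libraries were left out, lowest for higher calls without the library labelled p16 replicate 1 and for lower calls without control replicate 1.

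Small log2 differences changed sign. Lef1 went from 0.07 to -0.71 without replicate 3 of both groups, -0.15 in edgeR and -0.10 in DESeq2, and Tle3 to -0.0285 without replicate 3 of both groups. Bcl9 went to 0.02 with total count scaling. Leaving out single libraries gave -0.44 to 0.49 for Lef1, -0.0439 to 0.0613 for Tle3, -0.1221 to 0.0125 for Tle4 and -0.14 to 0.10 for Bcl9. The cause was not tested. The 6 ratios moved by less than 1 SD in every alternative run for them. Lef1 and Tle2 gave no value at a minimum mean of 10.

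Same-numbered control and p16 samples deviated together with correlations of 0.106, 0.021, 0.064 and 0.178. Control replicates 1, 3 and 4 each correlated best with their own number (next best 0.097, 0.057 and -0.055), and control replicate 2 with another number (0.131). The main fit took no pairing from the numbers, and these values do not settle whether they mark one. With the block, Tcf7 passed in limma (adjusted p = 0.0328), and 216 genes were called higher and 392 lower.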
